A study of Mus musculus with 2 samples.

Results

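Lor, Sprr1a, Sprr2a3, Emp1, Mal, Serpinb9b and Prss22 are 7 mouse genes of surface and squamous epithelia that were taken by symbol from the 27514 genes shared by both count tables of this study. They were selected on their measured levels and ratios in these same libraries, so their levels are given as a description and nothing is supported with them. The cells were epithelial organoid cells, 1881 from the control and 2751 from the RSPO1-Fc culture, that passed a limit on total unique molecular identifiers (UMIs, each standing for 1 captured transcript) and held at least 5 UMIs of Epcam, an epithelial adhesion molecule.

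Organoids grown from intestinal adenomas of ApcMin/+ mice on the C57BL/6 background, 17 weeks old, were measured by droplet single-cell 3′ RNA sequencing. The Min allele truncates Apc, which restrains β-catenin, and both cultures carry it. One culture received RSPO1-Fc and the control did not. RSPO1-Fc joins R-spondin 1, a secreted protein that strengthens Wnt signals at the cell surface, to an antibody Fc part. The treatment protocol gives a dose of 10 µg/ml, but the description of that sample has milligrams in its place. With 1 library a group, differences between the cultures carry no replicate check and were not tested. Intervals are at the 95% level for counting error alone.

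The libraries held 91675581 (control) and 89437327 (RSPO1-Fc) UMIs, with medians of 27736 and 23548 UMIs per epithelial cell and no cell barcode in common. They differ in more than the treatment. Xist, expressed from the inactive X chromosome, was at 1507 CPM (UMIs per 1000000 UMIs of the library's epithelial cells) in the control and at 0.0427 CPM with RSPO1-Fc, while the Y-linked Ddx3y stood at 0 and 33.7 CPM. Hoxb13, a gene of the distal gut, stood at 104.6 and 0 CPM, and Gata4, a gene of the proximal gut, at 0.0149 and 44.0 CPM. The 2 matrices also have barcode lists of different length, 6794880 and 737280, and gene lists of 31053 and 27998 genes. Sex, gut segment, library preparation, the gene list used for counting and RSPO1-Fc therefore cannot be told apart in any comparison between the libraries. Within-library comparisons are free of this limit. Summed markers of macrophages, fibroblasts, endothelium, mural cells and lymphocytes came to 352 CPM in control and 47.5 CPM in RSPO1-Fc epithelial cells; their part in the results was not tested except where stated.

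The cornified envelope is the protein shell that replaces the plasma membrane of dying keratinocytes at the skin surface. Transglutaminases build it by cross-linking loricrin (Lor), small proline-rich proteins (Sprr genes), involucrin and others, most of them encoded side by side in the epidermal differentiation complex. Sprr genes are also known as stress and regeneration genes of simple epithelia, the gut among them. The other genes of the set are not envelope components. Emp1 encodes a tetraspan epithelial membrane protein, Mal a proteolipid of apical membrane transport, Serpinb9b an intracellular clade B serpin, and Prss22 a trypsin-like serine protease of epithelial surfaces.

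Lor (ENSMUSG00000043165) lies on the minus strand at chr3:92080271-92083142 of GRCm38, Sprr2a3 (ENSMUSG00000074445) on the plus strand at chr3:92285417-92291405 and Sprr1a (ENSMUSG00000050359) on the minus strand at chr3:92483952-92485895. Their starts are 202 kb and 403 kb apart from that of Lor. Emp1 (ENSMUSG00000030208) lies at chr6:135362545-135383173, Mal (ENSMUSG00000027375) at chr2:127633226-127656695, Serpinb9b (ENSMUSG00000021403) at chr13:33027416-33041884 and Prss22 (ENSMUSG00000045027) at chr17:23993534-23998100. The annotation gives all 7 as protein-coding. The last 300 bases of the Sprr2a3 transcripts are 98.7% and 99.3% similar to Sprr2a2. Reads of the Sprr2a genes could thus be split between them, and the Sprr2a3 level is uncertain in that sense. Summed over Sprr2a1, Sprr2a2 and Sprr2a3, the level was 70.1 CPM in control and 452 CPM in RSPO1-Fc cells. Sprr2a3 alone stood at 69.9 and 448 CPM.

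The 250 bases before the start of Lor, Sprr1a, Emp1 and Sprr2a3 are shown because these are the genes with the most UMIs in the RSPO1-Fc library, 3 of them in one stretch of chromosome 3. The sequences are from RefSeq (GRCm38.p6), which matched 6 of the 7 genes, and capitals mark matches to TGANTCA, the site letters of the AP-1 (Fos and Jun) family, and to TATAAA, the TATA box. Both strands were searched, and the motifs do not overlap here. The RefSeq starts of Sprr1a, Emp1 and Sprr2a3 differ from the gene coordinates given above. By those coordinates the Emp1 window lies inside the gene, the Sprr1a window overlaps its gene, and the Sprr2a3 window ends short of the start.
Lor, chr3:92083143-92083392, minus strand: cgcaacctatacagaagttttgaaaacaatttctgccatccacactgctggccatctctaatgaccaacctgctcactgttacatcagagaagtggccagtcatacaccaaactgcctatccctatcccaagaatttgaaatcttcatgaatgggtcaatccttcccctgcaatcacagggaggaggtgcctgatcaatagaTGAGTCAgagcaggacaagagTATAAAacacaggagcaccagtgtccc
Sprr1a, chr3:92485882-92486131, minus strand: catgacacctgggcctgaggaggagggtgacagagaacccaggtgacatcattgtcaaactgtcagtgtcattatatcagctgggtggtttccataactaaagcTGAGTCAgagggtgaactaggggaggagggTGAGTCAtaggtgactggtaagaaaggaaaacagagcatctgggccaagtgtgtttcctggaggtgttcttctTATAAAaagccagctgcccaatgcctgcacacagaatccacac
Emp1, chr6:135362681-135362930, plus strand: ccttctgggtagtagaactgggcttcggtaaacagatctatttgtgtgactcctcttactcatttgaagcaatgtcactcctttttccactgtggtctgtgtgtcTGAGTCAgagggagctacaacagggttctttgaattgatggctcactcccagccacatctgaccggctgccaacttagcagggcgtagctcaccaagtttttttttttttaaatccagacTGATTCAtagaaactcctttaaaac
Sprr2a3, chr3:92285054-92285303, plus strand: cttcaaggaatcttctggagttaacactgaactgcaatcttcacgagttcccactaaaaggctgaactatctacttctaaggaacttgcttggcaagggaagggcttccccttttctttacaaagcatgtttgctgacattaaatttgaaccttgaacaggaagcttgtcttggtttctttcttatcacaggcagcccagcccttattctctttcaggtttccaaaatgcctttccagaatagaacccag
The Lor window holds 1 AP-1 match 48 bases before the start and a TATA box match at 27 bases. The Sprr1a window holds AP-1 matches at 146 and 116 bases and a TATA box match at 43 bases. The first of the 2 Emp1 promoters holds AP-1 matches at 145 and 25 bases. The windows of Sprr2a3, Mal, Serpinb9b and the second Emp1 promoter hold neither letter string. Of all 32851 promoter windows of this length, 6.75% hold the AP-1 letters and 12.4% the TATA letters. These matches are a description of letters, not of binding.

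Lor and Serpinb9b had the highest ratios between the libraries among the 7 genes. Lor was counted 58 times (0.867 CPM) in control epithelial cells and 15749 times (224 CPM) in RSPO1-Fc cells, a 258-fold higher level (199.8 to 340). Sprr2a3 had the most UMIs of the set in both libraries. It was counted 4676 times (69.9 CPM) in the control and 31507 times (448 CPM) with RSPO1-Fc, 6.41-fold higher (6.22 to 6.61). Sprr1a was counted 784 times (11.7 CPM) and 6215 times (88.4 CPM), 7.54-fold higher (7.0 to 8.14). Cells with 3 or more unthinned UMIs of non-epithelial markers made up 54.0% of control and 14.4% of RSPO1-Fc epithelial cells. Without them, the levels were 41.2 and 437 CPM for Sprr2a3 (log2 ratio 3.37 in place of 2.66). For Sprr1a they were 5.96 and 82.8 CPM (3.59 in place of 2.81). What else set the cells left out apart was not tested. All 3 envelope genes thus stood higher in the RSPO1-Fc library.

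The membrane genes went separate ways. Emp1 was counted 1329 times (19.9 CPM) in the control and 6475 times (92.1 CPM) with RSPO1-Fc, 4.64-fold higher (4.37 to 4.92). Mal was counted 2261 times (33.8 CPM) and 1987 times (28.3 CPM), 1.2-fold lower (1.13 to 1.27), and is the only member that was not higher. With TMM factors the log2 ratio of Mal was 0.08 in place of -0.25, which turns its direction. Serpinb9b, with 6 UMIs (0.0897 CPM) in the control and 826 (11.7 CPM) with RSPO1-Fc, was 131-fold higher (59.9 to 358), an interval that overlaps that of Lor. With RNA from outside cells subtracted at its upper estimate, Serpinb9b stood at 0 CPM with RSPO1-Fc, and its log2 ratio went from 3.55 to -0.11. The gene Gm36099 overlaps it on the opposite strand and is listed in the control table alone, and whether counting used strand is not given in the sources used here. Prss22, with 322 UMIs (4.81 CPM) and 628 (8.93 CPM), was 1.86-fold higher (1.62 to 2.13). The same subtraction left Prss22 at 4.75 and 1.78 CPM and turned its direction (log2 ratio -1.05), and it left Mal at 0 CPM with RSPO1-Fc.

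Of the 7 genes, 5 reached 20 CPM in either library, and Lor, Sprr1a and Emp1 did so only through the RSPO1-Fc library. Among the 6911 genes at that level, 7.23% were at least 2-fold higher and 18.7% at least 2-fold lower with RSPO1-Fc (500 and 1289 genes), and the median log2 ratio was -0.18. Under TMM scaling the split was 985 higher and 766 lower, and the median moved by 0.33 on the log2 scale. The 4 members past both limits (Lor, Sprr1a, Sprr2a3, Emp1) were picked for these values, so nothing is read from that count.

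**Figure D1:**
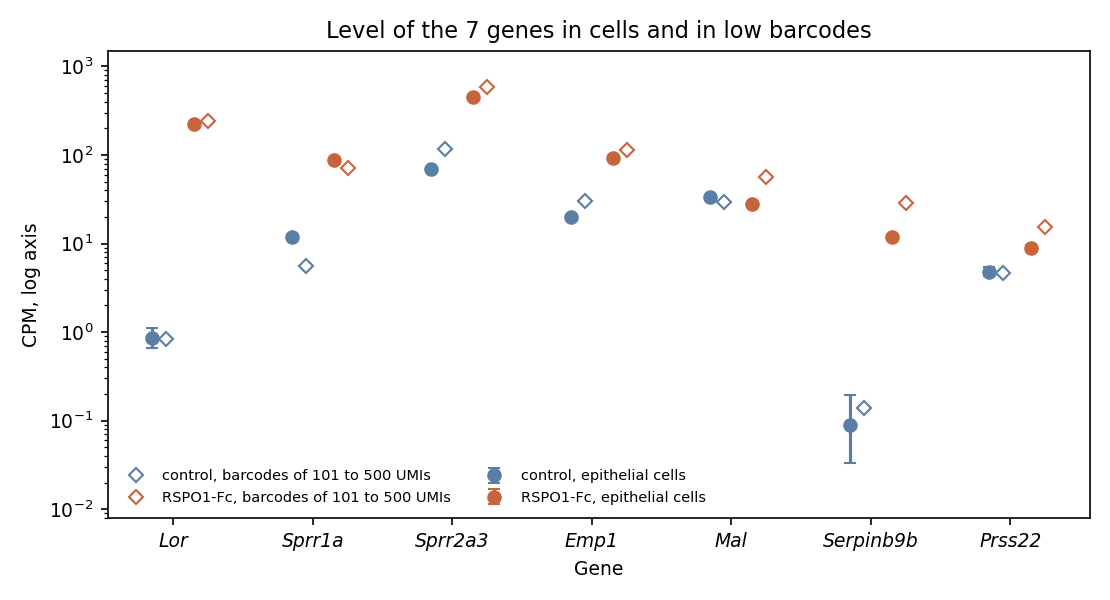
Level of each gene in CPM (log axis) in epithelial cells (filled circles, with 95% Poisson intervals) and in barcodes with over 100 and up to 500 UMIs, which hold mostly RNA outside cells (open diamonds). Lor stood at 0.867 CPM in control and 224 CPM in RSPO1-Fc cells, and in RSPO1-Fc the low barcodes of all genes but Sprr1a lay above the cells.

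RNA outside cells was rich in these transcripts in the RSPO1-Fc library. In its barcodes with over 100 and up to 500 UMIs, which hold too little RNA to be cells of the gate, Lor stood at 242 CPM, Sprr2a3 at 581, Emp1 at 114, Sprr1a at 71.3, Mal at 55.9, Serpinb9b at 28.8 and Prss22 at 15.4 CPM. Sprr1a was the one gene of the set that was higher in cells than in these barcodes (1.24-fold). The cell level was 0.926 of the low-barcode level for Lor, 0.505 for Mal and 0.408 for Serpinb9b. In the control low barcodes, Lor stood at 0.840 CPM and Sprr1a at 5.60 CPM, so for these genes the low barcodes of the 2 libraries differ in the same direction as their cells. Mal went the other way, from 29.6 CPM in control to 55.9 CPM in RSPO1-Fc low barcodes, while its cell level was lower with RSPO1-Fc.

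Members just inside and outside the limits of the cell gate were compared once. In RSPO1-Fc barcodes from 0.8 of the UMI limit up to it (60 barcodes), Lor stood at 222 CPM, and in the 53 cells just above it at 198 CPM. For Sprr2a3 these values were 231 and 224 CPM. Sprr1a stood at 31.3 and 87.5 CPM, Emp1 at 138 and 84.5 CPM, and Prss22 at 6.25 and 29.2 CPM, over few cells. In the control the 88 cells with 1 to 4 Epcam UMIs held Emp1 at 200.04 CPM and Mal at 0 CPM, while the 34 cells with 5 to 9 Epcam UMIs held Emp1 at 23.9 CPM and Mal at 91.7 CPM. The control cells of low Epcam thus held more Emp1 than the epithelial cells and no Mal.

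To compare shares of cells at equal depth, each cell was thinned to 5000 UMIs. With RSPO1-Fc, 45.5% of cells (43.6 to 47.4) then held a Lor UMI, against 0.425% (0.184 to 0.836) in the control. Unthinned, the shares were 82.7% and 2.87%. Sprr2a3 was found in 61.1% and 11.1% of thinned cells (90.2% and 25.4% unthinned), and Emp1 in 30.8% and 6.22% (67.9% and 20.3% unthinned). Sprr1a was found in 19.0% and 2.29% of thinned cells (46.1% and 5.64% unthinned). Mal was nearly level, at 10.8% and 8.45% (29.2% and 24.7% unthinned).

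The 2 genes of low level were rare in both cultures. Serpinb9b was found in 3.78% of thinned RSPO1-Fc cells and in 0 of 1881 in the control after thinning, and this count of 0 allows up to 0.159% (12.0% and 0.159% unthinned). Prss22 was found in 4.47% and 1.17% (14.3% and 5.95% unthinned). At least 1 of the 7 genes was seen in 84.3% of thinned RSPO1-Fc cells and 23.4% of control cells.

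These shares need the background beside them. In the control, 181 cells outside the gate with macrophage markers (median 14565 UMIs, against 27736 in epithelial cells) held 0 UMIs of Lor, Sprr1a, Mal, Serpinb9b and Prss22 (a count of 0 allows up to 1.66% of them), and 2 UMIs of Sprr2a3. Emp1 was detected in 40.3% of them after thinning (127 CPM), above its share in epithelial cells. The RSPO1-Fc library had only 16 cells under the Epcam limit, so no cell type lacking these genes could serve there. An upper estimate of RNA from outside cells was 52.3% of the UMIs of an RSPO1-Fc cell and 11.9% of a control cell.

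At that upper estimate, RNA from outside would by itself give a Lor UMI to 46.9% of thinned RSPO1-Fc cells, a Sprr2a3 UMI to 78.2%, a Sprr1a UMI to 17.0%, an Emp1 UMI to 25.8%, a Mal UMI to 13.2%, a Serpinb9b UMI to 5.71% and a Prss22 UMI to 3.96%. The observed shares of Lor (45.5%), Sprr2a3 (61.1%), Mal (10.8%) and Serpinb9b (3.78%) do not exceed these values, and those of Sprr1a (19.0%), Emp1 (30.8%) and Prss22 (4.47%) lie slightly above them. Since the estimate is an upper one, and gives more cells with Sprr2a3, Mal and Serpinb9b than were seen, whether a single UMI came from the cell itself was not tested. Shares of RSPO1-Fc cells with 1 UMI are not read as shares of cells expressing the gene.

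Cells with many UMIs of a gene were counted as well. A cell is called high here when it holds at least 5 thinned UMIs of the gene. With RSPO1-Fc, 119 cells (4.33%) were high for Lor, where RNA from outside at the upper estimate would give 1.38. Sprr1a had 62 high cells (2.25%, against 0.00444) and Sprr2a3 336 (12.2%, against 54.0). Emp1 had 11 high cells (against 0.0426), Mal 3 (against 0.00115), Serpinb9b 3 (against 1.53e-05) and Prss22 0. In the control, 0 cells were high for Lor, 6 for Sprr1a, 25 for Sprr2a3, 8 for Mal and 1 for Emp1. For all of the genes but Prss22, more RSPO1-Fc cells were high than the upper estimate gives. For Emp1, Mal and Serpinb9b this rests on 11, 3 and 3 cells. That estimate takes the same share of RNA from outside in every cell, and how far the share varied between cells was not tested.

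**Figure D2:**
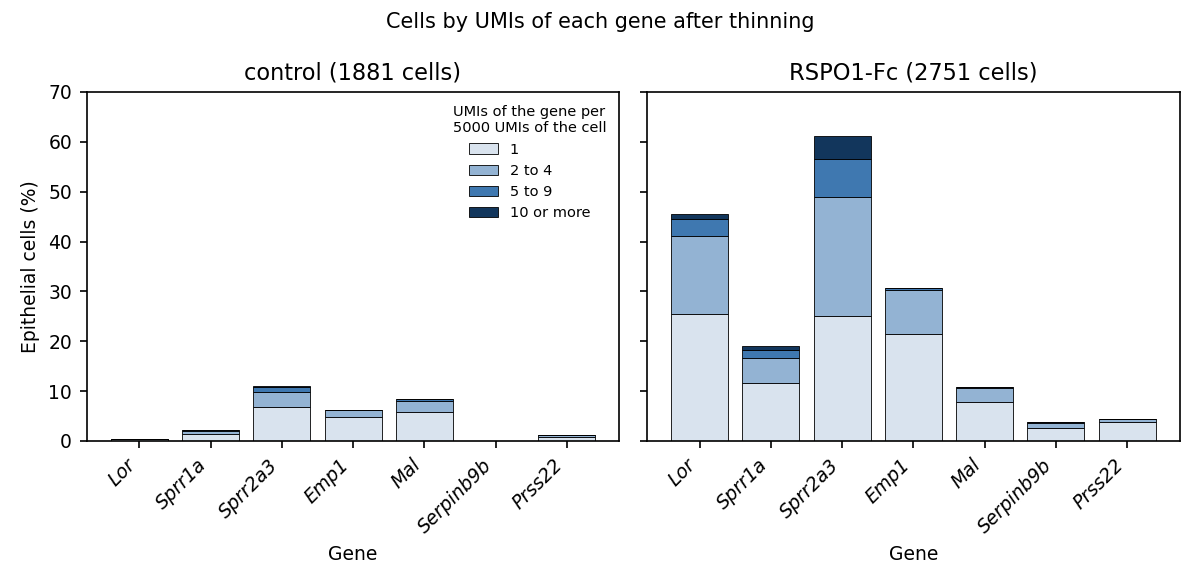
Share of epithelial cells (%) by the UMIs of each gene after thinning every cell to 5000 UMIs, in 1881 control and 2751 RSPO1-Fc cells; cells with 0 UMIs make up the rest. Most RSPO1-Fc cells with Lor or Emp1 held fewer than 5 UMIs, and cells with 5 or more made up 4.33% for Lor and 12.2% for Sprr2a3.

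The transcripts were spread unevenly over cells, in a way that differed by gene. In RSPO1-Fc cells the variance of the thinned UMIs was 19.1 times the mean for Sprr1a, where counting alone gives about 1. It was 7.48 times the mean for Sprr2a3, 3.61 for Lor and 2.28 for Serpinb9b, but 1.52 for Emp1, 1.67 for Mal and 1.27 for Prss22. The 1% of RSPO1-Fc cells with the most UMIs of a gene (28 cells) held 31.8% of the Sprr1a UMIs, 39.8% of Serpinb9b, 14.1% of Sprr2a3, 13.8% of Lor and 7.91% of Emp1. The highest single cell held 286 UMIs of Sprr1a, 252 of Sprr2a3 and 170 of Lor. Emp1 reached only 24.

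In the control, a few cells carried most of the Sprr1a and Prss22 UMIs. The 19 cells with the most UMIs of each gene held 75.9% of the Sprr1a UMIs, 62.7% of Prss22, 42.8% of Sprr2a3 and 31.3% of Mal. One cell held 204 of the 784 Sprr1a UMIs and the next 76. One cell held 350 of the 4676 Sprr2a3 UMIs. The control levels of Sprr1a and Prss22 thus rest on few cells.

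Lor, Sprr2a3 and Sprr1a lie in one stretch of chromosome 3 with many relatives. Of 63 shared genes within 1 Mb of any of them, these 3 alone reached 20 CPM, and 27 had 0 UMIs in both libraries. The neighbours that were counted stayed low. Lce1h, a late cornified envelope gene, was counted at 0.0598 CPM in control and 3.73 CPM in RSPO1-Fc cells, and Ivl, which encodes involucrin, at 0.224 and 3.31 CPM. Sprr2b stood at 0.688 and 3.98 CPM, Sprr2a1 at 0.105 and 1.99 CPM, and Lce3d at 0 and 1.52 CPM. Sprr1b, the closest relative of Sprr1a, had 0 UMIs in the control and 1 with RSPO1-Fc, and Flg, which encodes filaggrin, had 0 in both. These neighbours were picked after their values were seen. Of the 60 neighbours other than the members, 28 stood higher and 5 lower with RSPO1-Fc, most of them on few UMIs. Over all genes of at least 20 CPM, 2879 stood higher and 4032 lower. The split among all genes as low as these neighbours was not computed, so nothing is read from their count. The 5 lower neighbours were Crct1, a cysteine-rich gene (1.42 and 0.626 CPM), Prr9 (26 and 5 UMIs), Sprr2h (13 and 1 UMIs), Gm37245 (10 and 7 UMIs) and Crnn (3 and 0 UMIs).

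**Figure D3:**
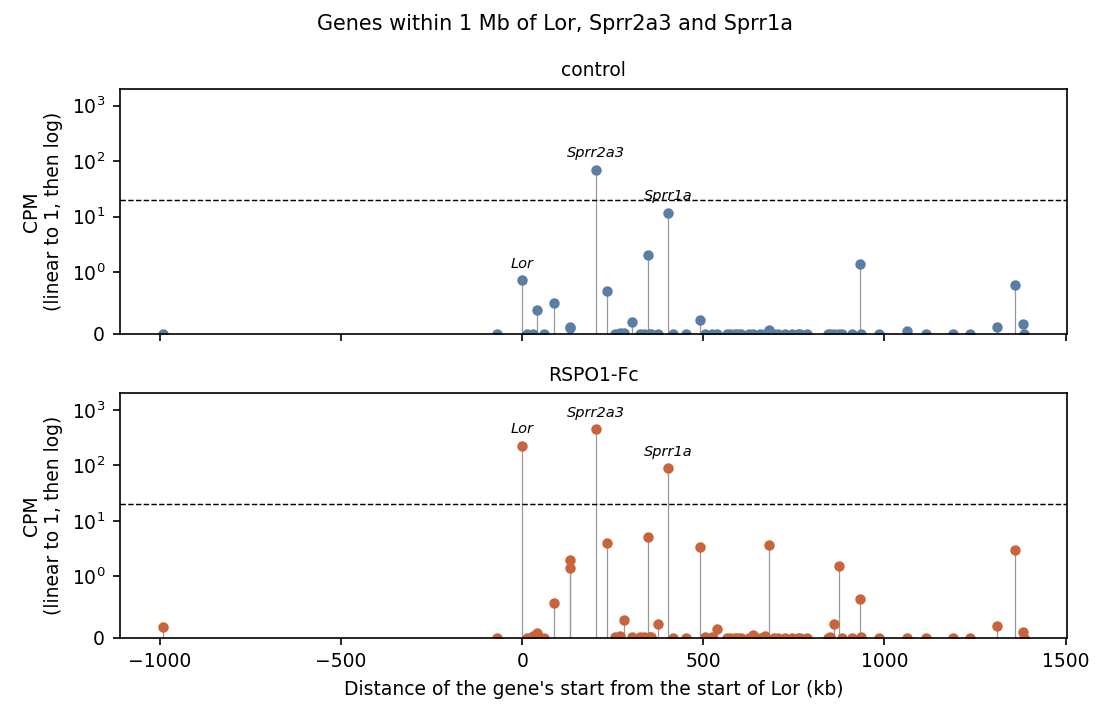
Level (CPM, linear up to 1 and log above) of 63 genes against the distance of their start from the start of Lor in kb, in control (top) and RSPO1-Fc (bottom) epithelial cells; the dashed line marks 20 CPM. With RSPO1-Fc only Lor (224 CPM), Sprr2a3 (448 CPM) and Sprr1a (88.4 CPM) lay above the line.

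The whole epidermal differentiation complex did not move as one. Of 58 listed genes in the tables, 12 reached 20 CPM, and 5 of these were at least 2-fold higher and 5 at least 2-fold lower with RSPO1-Fc (background 7.23% and 18.7%); the median log2 ratio of the 12 was -0.38, against -0.18 over all genes at that level. Under TMM scaling 6 of 13 were higher and 3 lower. Lor, Sprr1a and Sprr2a3 are in both counts of higher genes and were picked for these values. The counts of higher genes and the median are therefore a description only. Besides the 3 members, the higher genes were S100a10 (410 to 953 CPM), the partner of annexin A2, and S100a11 (882 to 1786 CPM), both calcium-binding proteins of many epithelia. The lower genes were S100a1, S100a13, S100a16, S100a8 and S100a9. S100a8 and S100a9, the calprotectin subunits of myeloid and inflamed epithelial cells, went from 70.9 to 0.0142 CPM and from 93.5 to 0 CPM, beside macrophage markers that summed to 199.7 CPM in control and 23.7 CPM in RSPO1-Fc cells. Their part in that difference was not tested.

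Genes that cross-link and anchor an envelope were mostly below the level limit. Of 26 listed genes, 9 reached 20 CPM, with 1 higher and 1 lower by at least 2-fold (background 7.23% and 18.7%) and a median log2 ratio of 0.33; under TMM, 4 of 10 were higher (Sfn, Cstb, Anxa1 and Perp) and 0 lower. The higher one was Sfn, which encodes the keratinocyte 14-3-3 protein sigma and is also known from stressed simple epithelia (99.3 to 318 CPM, 3.20-fold, 3.12 to 3.29). The lower one was Ly6d (142 to 59.8 CPM). Anxa1, an annexin of the envelope and of repairing epithelium, stood at 170 and 310 CPM, and the protease inhibitor Cstb at 191 and 322 CPM. Tgm1, the membrane transglutaminase of keratinocytes, stayed below the limit at 1.69 and 6.42 CPM.

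Of the genes of stratified squamous epithelium, Trp63, Krt5 and Krt1 were at or near 0, while some other squamous keratins were measured. The cells are not called squamous here. Trp63, the master regulator of stratified epithelia, had 0 UMIs in both libraries. The basal keratin Krt5 had 1 UMI in the control and 0 with RSPO1-Fc, and the suprabasal keratin Krt1 had 0 and 1. Of 14 identity genes, 3 reached 20 CPM, with 1 higher and 1 lower by at least 2-fold (background 7.23% and 18.7%). Krt4, a keratin of internal squamous surfaces, was 4.06-fold higher (10.0 to 40.7 CPM; interval 3.73 to 4.42), Krt17 was 35.6-fold lower (40.0 to 1.12 CPM; 28.5 to 45.1), and Krt10 stood at 12.9 and 20.9 CPM, past 2-fold only under TMM.

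Transcription factors known from squamous and surface differentiation split in both directions. Of 17 listed, 13 reached 20 CPM, 4 were at least 2-fold higher and 5 at least 2-fold lower (background 7.23% and 18.7%), with a median log2 ratio of -0.14; under TMM, 5 were higher and 2 lower (Hopx and Casz1). The higher ones were Fosl1, an AP-1 subunit (14.0 to 33.5 CPM, 2.39-fold, 2.22 to 2.59), Ovol1 (10.6 to 24.5 CPM), Prdm1 (13.6 to 30.2 CPM) and Grhl3 (11.8 to 25.1 CPM). The lower ones were Casz1 (148 to 28.4 CPM), Hopx (162 to 34.7 CPM), Klf4 (130 to 58.2 CPM), Grhl2 (33.8 to 15 CPM) and Ehf (248 to 122 CPM). Another AP-1 subunit, Fosl2, stood at 115 and 141 CPM.

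The families of the 4 other members were followed in the same way. Of 10 MAL and EMP family genes, 7 reached 20 CPM, and Emp1 alone was at least 2-fold higher, while Emp2 (58.5 to 28.8 CPM) and Cmtm8 (25.0 to 10.3 CPM) were lower (background 7.23% and 18.7%); the median log2 ratio was -0.25. Under TMM, Mal2 joined Emp1 and 0 were lower. Emp1 and Mal are members picked for these values, so these counts and the median are a description only. Of 26 clade B serpins, 4 reached 20 CPM, and 2 were higher and 0 lower (background 7.23% and 18.7%), with a median log2 ratio of 0.76. These were Serpinb1a, an inhibitor of neutrophil proteases (36.0 to 278 CPM, 7.71-fold, 7.39 to 8.05), and Serpinb11 (19.5 to 46.4 CPM). Below the limit, Serpinb7 went from 0.194 to 15.4 CPM (79.1-fold, 46.0 to 149) and Serpinb6b from 0.852 to 17.4 CPM (20.4-fold, 15.7 to 27.1); both were picked after their values were seen.

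Of 19 surface proteases and inhibitors, 7 reached 20 CPM, 0 were at least 2-fold higher and 2 lower (background 7.23% and 18.7%), with a median log2 ratio of -0.22; under TMM, 3 were higher (Prss8, Tmprss2 and Spint2) and 2 lower. The lower ones were Prss32 (97.1 to 20.1 CPM) and Tmprss4 (141 to 53.0 CPM). The inhibitor Spint2 stood at 508 and 816 CPM, and the protease Tmprss2 at 73.5 and 144 CPM.

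Within each library the 7 genes were only weakly tied to each other across cells. Correlations are Pearson r of log2(1 + thinned UMIs) over cells that share 1 library and 1 depth, given as a description. In RSPO1-Fc cells the median over the 21 pairs was 0.12. The highest were Sprr1a with Mal (0.25), Mal with Serpinb9b (0.23) and Sprr2a3 with Emp1 (0.19). Of the cells with a Mal UMI, 40.1% also held Sprr1a, against 19.0% of all cells. In sparse counts such values are no finding by themselves.

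The 3 lowest of the 21 values in RSPO1-Fc cells were those of Lor with Prss22, Serpinb9b and Mal. The r of Lor was 0.14 with Sprr2a3 and 0.12 with Emp1, 0.07 with its neighbour Sprr1a, and 0.03, 0.01 and -0.00 with Mal, Serpinb9b and Prss22. Of cells with a Sprr1a UMI, 50.8% held Lor, against 45.5% of all cells. Of the 119 Lor-high cells, 8 were also among the 62 Sprr1a-high cells (6.72% of the former, 12.9% of the latter), and 27 were among the 336 Sprr2a3-high cells (22.7% and 8.04%). Sprr1a-high and Sprr2a3-high cells shared 19 (30.6% and 5.65%).

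In the control the median over 15 pairs was 0.07, since Serpinb9b had no thinned UMI there. The highest were Mal with Prss22 (0.28), Sprr2a3 with Mal (0.26), Sprr2a3 with Prss22 (0.24) and Sprr2a3 with Emp1 (0.23). Lor, with 8 thinned control cells holding 1 UMI each, gave values up to 0.07.

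**Figure D4:**
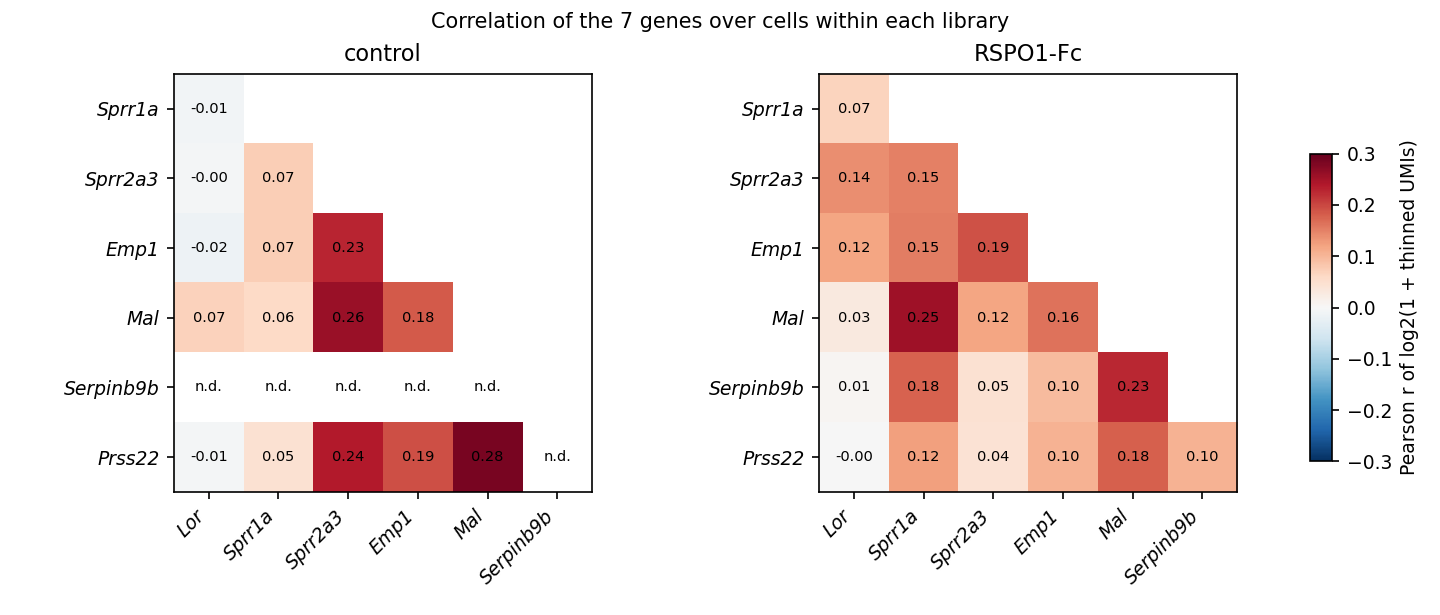
Pearson r between the 7 genes over epithelial cells of the control (left) and RSPO1-Fc (right) library, on log2(1 + thinned UMIs); n.d. marks pairs with Serpinb9b, which had 0 thinned control UMIs. No pair exceeded 0.28, and the Lor column of the RSPO1-Fc library ranged from -0.00 to 0.14.

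Cells that carried several of the genes at once were counted in both libraries. After thinning, 231 RSPO1-Fc cells (8.40%, 7.39 to 9.50) held UMIs of at least 4 of the 7 genes, against 5 control cells (0.266%, 0.0864 to 0.619); none held all 7. RNA from outside at the upper estimate would by itself give 5.36% of RSPO1-Fc cells (148 cells) UMIs of at least 4 genes. With at least 2 UMIs asked of each gene, 22 RSPO1-Fc cells and 1 control cell were counted, where it would give 0.203 RSPO1-Fc cells. The 231 cells had a median of 24418 UMIs, against 20994 in the 432 RSPO1-Fc cells with none of the genes. Clu, a marker of regenerating gut epithelium, stood at 3020 CPM in the former and 516 CPM in the latter, Anxa1 at 789 and 178 CPM, and Msln at 559 and 116 CPM. The Wnt target Nkd1 stood at 27.7 and 254 CPM, and Defa22, a Paneth cell defensin, at 62.3 and 1095 CPM. These are levels, and shares of cells are not given for these sets. In Sprr2a3-high RSPO1-Fc cells Defa22 stood at 82.7 CPM, against 646 CPM in cells without Sprr2a3. The shares of cells with Defa22 were 23.8% and 25.6% there.

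Genes most like the set across cells were ranked by r in each library. In RSPO1-Fc, the highest r with the mean of the 7 genes, over 7522 genes, was that of Tmsb4x (0.46), which binds actin, then the simple-epithelium keratins Krt19 (0.45), Krt7 (0.40) and Krt8 (0.38), Clu (0.42), S100a11 (0.40), Ahnak (0.39), Anxa3 (0.39), Sfn (0.37) and Anxa2 (0.36). The lowest were Ifitm1 (-0.47) and Ifitm3 (-0.45), interferon-induced membrane proteins. In the control, over 8082 genes, Ly6a (0.53), the stem cell antigen of fetal-like gut epithelium, led 2200002D01Rik (0.45), Ahnak (0.42), Anxa3 (0.41), AA467197 (0.41), Ceacam1 (0.41), Plac8 (0.40), Wfdc2 (0.40), Sfn (0.39) and Lgals3 (0.37). Ahnak, Anxa3 and Sfn stood in both lists of 10.

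By single gene, likeness followed the same lines. In RSPO1-Fc cells, Sprr1a was nearest to Tmsb4x (0.37), S100a11 (0.36) and Clu (0.33), Mal to Tmsb4x (0.34), Krt7 (0.33) and Clu (0.33), and Sprr2a3 to Tmsb4x (0.32) and Plac8 (0.31). In control cells, Sprr2a3 was nearest to Lgals4 (0.39), Ly6a (0.38) and 2200002D01Rik (0.37), Emp1 to Ly6a (0.37), Ceacam1 (0.36) and Ahnak (0.33), Mal to Ly6a (0.34) and Anxa3 (0.30), and Prss22 to AA467197 (0.33), Serpinb1a (0.32) and Akr1b8 (0.31). Lor had no gene at 0.30 or more in either library.

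Among the enterocyte genes, Krt20, the keratin of differentiated intestinal cells, had the highest r with the set. The r between the mean of the 7 genes and the sum of 13 enterocyte genes was 0.24 in control and 0.13 in RSPO1-Fc cells. Krt20 alone gave 0.42 and 0.29. It was seen in 1.06% of thinned control cells and 21% of RSPO1-Fc cells, so the control value rests on few cells. Without Krt20, an alternative chosen after these values were seen, the r of the remaining genes was 0.16 and -0.011.

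Genes of absorption itself gave values near 0 with RSPO1-Fc. In RSPO1-Fc cells, r with the mean of the 7 genes was 0.04 for Vil1, a brush border protein, 0.03 for the fatty acid carrier Fabp2, 0.02 for Alpi, the intestinal alkaline phosphatase, -0.04 for Fabp1 and -0.07 for Anpep, a brush border peptidase. In the control they were 0.15 for Vil1 and 0.10 for Fabp2, and 5 of the 13 genes (Alpi, Apoa1, Apoa4, Sis, Lct) had 0 thinned UMIs. By member, the enterocyte sum followed Sprr2a3 most (0.23 in control, 0.12 in RSPO1-Fc) and Lor least in the control (-0.01); Lor was at 0.02 and Serpinb9b at -0.02 in RSPO1-Fc. By comparison, the 8 fetal or regenerative genes gave 0.41 and 0.49 with the mean of the set, and the 6 stem cell genes -0.19 and -0.25.

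Lor-high and Sprr1a-high cells of the RSPO1-Fc library differed in what else they expressed. The genes below were picked after their values were seen and are given as shares of thinned cells with a UMI. Mki67, a marker of cycling cells, was found in 34.5% of Lor-high cells (26.0 to 43.7) and 8.06% of Sprr1a-high cells (2.67 to 17.8), against 24.2% and 28.4% of the cells without the respective gene. The replication gene Mcm5 was found in 30.3% (22.2 to 39.3) and 9.68% (3.64 to 19.9), against 20.8% and 24.3%. The cyclin Ccnd1 was found in 79.8% of Lor-high cells (71.5 to 86.6), against 47.8% of cells without Lor, and in 58.1% of Sprr1a-high cells. In cells without Lor the intervals were 22.1 to 26.4 for Mki67 and 18.8 to 22.9 for Mcm5. All these intervals cover counting error over cells of 1 library, and 8 cells were both Lor-high and Sprr1a-high. The contrast between the sets was therefore not tested. Of the other cycling genes, Top2a was found in 39.5% of Lor-high and 16.1% of Sprr1a-high cells, against 34.5% and 41.5%, and Pcna in 42.9% and 29.0%, against 31.1% and 33.9%. Ccnb1 was found in 21% and 3.23%, against 18.6% and 22.8%, and Cdk1 in 30.3% and 16.1%, against 26.3% and 28.5%.

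Markers of surface and repair differed as well. Reg1, a secreted lectin of regenerating gut, was found in 29.4% of Lor-high cells (21.4 to 38.5) and 6.45% of Sprr1a-high cells (1.79 to 15.7), against 12.1% and 14.3% of cells without the gene. Krt4 was found in 33.6% (25.2 to 42.8) and 11.3% (4.66 to 21.9), against 11.7% and 14.7%. Fn1, which encodes fibronectin, was found in 16.8% (10.6 to 24.8) and 67.7% (54.7 to 79.1), against 27.8% and 23.4%. Anxa1 was found in 63.9% (54.5 to 72.5) and 93.5% (84.3 to 98.2), against 57.5% and 55.1%. By level, Anxa1 was lower in Lor-high cells (252 CPM) than in cells without Lor (337 CPM). It was higher in Sprr1a-high cells (865 CPM) than in cells without Sprr1a (264 CPM).

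Other genes leaned the same way in both sets of cells. Krt20 was found in 34.5% of Lor-high (26.0 to 43.7) and 51.6% of Sprr1a-high cells (38.6 to 64.5), against 18.0% in either set of cells without the gene. The growth factor gene Areg was found in 46.2% (37.0 to 55.6) and 71.0% (58.1 to 81.8), against 34.5% and 32.2%. The summed cycling list stood at 625 CPM in Lor-high and 181 CPM in Sprr1a-high cells, against 461 and 546 CPM in cells without Lor or Sprr1a. The fetal or regenerative list stood at 2418 and 5984 CPM, against 2035 and 1673 CPM. Paneth genes summed lower in both, at 190 and 168 CPM, against 1225 CPM in cells without Lor and 997 CPM in cells without Sprr1a. By share of cells they were less uniform. Defa22 was found in 16.0% of Lor-high and 27.4% of Sprr1a-high cells, against 24.9% and 24.3%. Defa24 was found in 33.6% and 30.6%, against 34.7% and 36.0%, and Defa17 in 5.88% and 1.61%, against 3.53% and 3.68%. Lyz1 was found in 7.56% and 9.68%, against 16.9% and 15.8%, and Itln1 in 15.1% and 3.23%, against 16.1% and 15.3%.

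These sets of cells also differed in depth and RNA makeup. The median was 27522 UMIs in Lor-high, 21198 in Sprr1a-high and 21906 in Lor-negative cells. Ribosomal protein genes took 27.6% of UMIs in Lor-high and 20.4% in Sprr1a-high cells, and 0.840% and 0% of these cells were among the highest doublet scores. The part of depth in the contrast was not tested beyond the thinning.

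**Figure D5:**
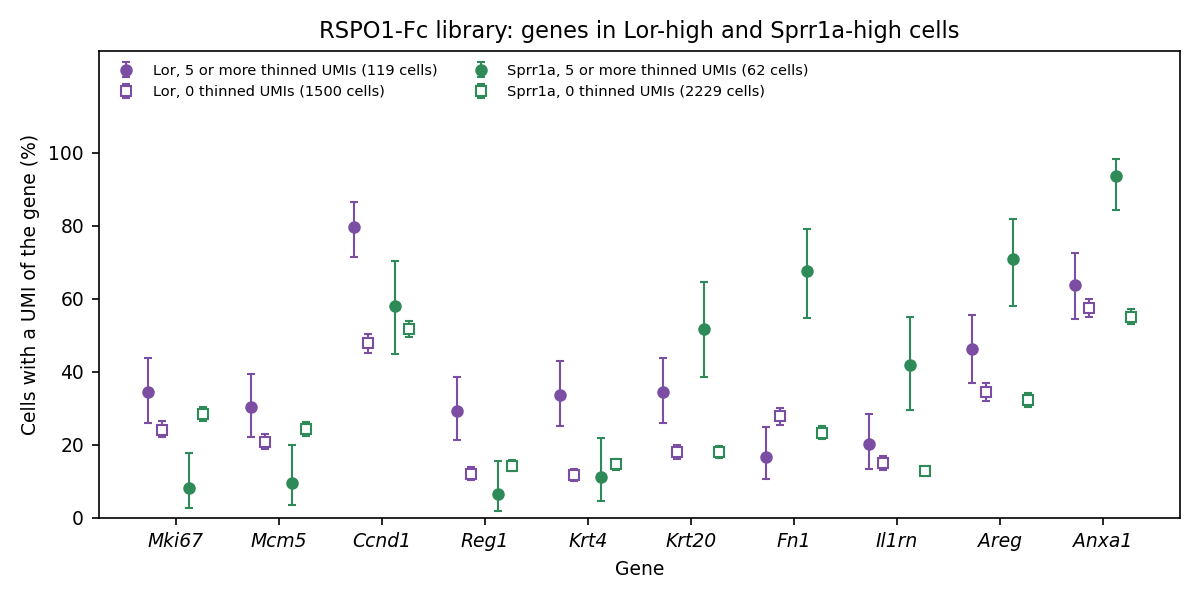
Share (%) of thinned RSPO1-Fc cells with a UMI of 10 genes, in cells high for Lor (119 cells, filled purple) or Sprr1a (62 cells, filled green) and in cells with 0 UMIs of that gene (open), with 95% Clopper-Pearson intervals. Mki67 was found in 34.5% of Lor-high and 8.06% of Sprr1a-high cells, and Fn1 in 16.8% and 67.7%.

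In the control, the 25 Sprr2a3-high cells were a mixed group. Ly6a was found in 18 of them (72.0%, 50.6 to 87.9), against 11.4% of cells without Sprr2a3, Lgals4 in 23 (92.0%, against 25.2%) and Ceacam1 in 15 (60.0%, against 8.67%). Krt14, a keratin of basal squamous cells, was found in 10 of them (40.0%, 21.1 to 61.3), against 1.85% (1.26 to 2.62), and Krt20 in 8 (32.0%), against 0.299%. The goblet genes Muc2, Tff3 and Spink4 were each found in 3 of the 25 cells, and 1 cell alone held 197 of the 220 Tff3 UMIs. The Wnt target Nkd1 was found in 56.0% (34.9 to 75.6), against 94.0% of cells without Sprr2a3, and Prox1 in 36.0% against 81.1%.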

How the data were processed

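Droplet libraries of 1 control and 1 RSPO1-Fc organoid culture were compared, grouped by the treatment label. The authors deposited raw UMI counts per gene and barcode. Per the labels' protocols, 10x v2 chemistry and the mm10 genome were used, with Cell Ranger 2.1.1 and Seurat 3.1.1 in the submitters' processing notes. Per the file headers, however, the control matrix was written by version 3.1.0, and its barcode list has the v3 length. Cells held 5 or more Epcam UMIs and a total no lower than 0.1 times the 99th percentile among the 5000 largest barcodes. CPM was computed over 27514 shared genes, ratios as log2 with a pseudocount of 1 CPM. Intervals are Poisson, conditional Clopper-Pearson for folds and Clopper-Pearson for shares; UMIs lost or doubled in amplification are outside them. Where a count of 0 is said to allow a share, the limit is 3 counts over the number of cells. Doublets were scored with scanpy 1.11.5 (alternative only), TMM with edgeR 4.0.16. Upper estimates of RNA from outside cells took the 1st percentile of the ratio of cells to low barcodes over genes of at least 100 CPM. In the macrophage marker cells, at least 20 macrophage UMIs, under 10 of other non-epithelial lists and under 5 Epcam UMIs were asked (limits set once the values were known). The level calls were tested on simulated data. Cells of 1 library do not replicate a condition, and p-values were not computed.

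The members and lists were chosen with earlier results of these data known. Named genes were the members, up to 4 per list by level and by ratio, the 10 genes most like the set per library, up to 3 per member, and neighbours at 20 CPM; others were picked after their values were seen, and not all genes the rule allows are reported here.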

Additional observations from a re-analysis of the deposited data

How the results depend on the processing

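The number of members at least 2-fold higher, 5 of 7 with no minimum level, was 6 under TMM, without cells with 3 or more non-epithelial UMIs, and as a mean over cells, 4 with RNA from outside subtracted, and 5 under the other alternatives. Over all genes with no minimum level, 2577 of 20119 were at least 2-fold higher in the main setting. The members were picked for these values, so nothing is read from these counts. Over the 9 alternatives the log2 ratio ran from 6.63 to 7.16 for Lor, 2.78 to 3.59 for Sprr1a, 2.25 to 3.37 for Sprr2a3 and 1.84 to 2.67 for Emp1, always above 0. Subtraction of the upper estimate of RNA from outside took Serpinb9b from 3.55 to -0.11, Mal to -5.12 and Prss22 to -1.05, because it removed all or nearly all of their RSPO1-Fc counts. Of 63 alternative ratios, 41 stayed within the counting interval, and those of Serpinb9b and Prss22 with RNA from outside subtracted and of Mal under TMM (0.08) changed sign. Genes at least 2-fold different were 1789 at 20 CPM, 9964 with no minimum and 471 at 100 CPM. The share of cells with any member was 14.5% in control and 69.5% in RSPO1-Fc after thinning to 2500 UMIs, 51.9% and 98.6% without thinning, and 7.76% and 52.3% at 2 UMIs or more. Cells with 4 or more members numbered 1 and 22 at 2 UMIs each, and 52 and 1283 without thinning. The median pair r in RSPO1-Fc was 0.21 without thinning. The r with enterocyte genes in control was 0.12 as Spearman's rho and 0.16 without Krt20, and -0.011 in RSPO1-Fc without Krt20. Shares at 1 UMI thus move with depth. No paired analysis was possible because each group holds 1 library.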
